A study of Mus musculus with 12 samples.

Results

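AMP-activated protein kinase (AMPK) is the kinase by which cells sense a fall in energy charge, and 9 genes were examined that encode its subunits and the upstream kinases LKB1 and CAMKK2, out of 15113 genes in the count table. The genes were taken by symbol. They comprise the catalytic α subunits Prkaa1 and Prkaa2, the scaffold β subunits Prkab1 and Prkab2, the nucleotide-binding γ subunits Prkag1, Prkag2 and Prkag3, and the kinases Stk11 (LKB1) and Camkk2. All 9 had enough counts to be tested for a response to BAM15, a small molecule that uncouples mitochondrial respiration from ATP synthesis.

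AMPK is a heterotrimer of an α, a β and a γ subunit. When ATP falls, AMP and ADP bind to the γ subunit, and the activation loop of the α subunit is kept phosphorylated, mainly by LKB1. CAMKK2 phosphorylates the same site when cytosolic calcium rises. The active kinase turns on fuel uptake and oxidation and turns off lipid synthesis and growth. Skeletal muscle is known for the isoforms α2, β2 and γ3, the last of which is largely restricted to this tissue. Counts of mRNA give the supply of transcripts and not the phosphorylation or activity of the kinase.

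The cells were C2C12, a single established line of mouse myoblasts that fuse into myotubes when growth serum is replaced by 2% horse serum. All were taken through this differentiation before treatment. BAM15-treated myotubes received 20 μM BAM15 in DMSO for 16 h, and vehicle myotubes received DMSO for the same time. Each condition had 6 libraries of 3′ QuantSeq, which reads from the poly(A) end of transcripts, with 13983725 to 18751780 counted reads in the BAM15 libraries and 15299135 to 18866728 in the vehicle libraries. The labels do not say whether libraries came from separate cultures, so p-values measure only the spread between these libraries, which may be technical.

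BAM15 libraries numbered 4 to 6 stood apart from those numbered 1 to 3, with 37.0% of 13349 genes at an adjusted p below 0.05 between them by edgeR's quasi-likelihood test. Between vehicle libraries of the same numbers, 0 genes passed and 725 had an unadjusted p below 0.05. By the interaction term, the effect of BAM15 itself differed between the number groups in 2.08% of genes at an adjusted p below 0.05. At an adjusted p below 0.01 it differed in 0 genes. The labels name no batch, and each result below is followed by number group where it changes. Summed markers of myotubes (10 of 10 tested) lay at 17780 to 20350 CPM (counts scaled by library size) in vehicle and 18100 to 22040 in BAM15 libraries. Acta1 made the largest part of this sum, with means of 7729 CPM in vehicle and 10150 in BAM15. At an adjusted p below 0.01, 3 markers were lower (Mymk, Mymx and Ckm) and 2 higher (Acta1 and Myog). Of all 12730 tested genes, 20.3% were lower and 22.0% higher at this threshold, which the marker counts here stand beside. The median log2 fold change of the 10 myotube markers was -0.14. Markers of undifferentiated or cycling myoblasts (8 of 8 tested) summed to 349 to 404.9 CPM in vehicle and 144.7 to 211.6 in BAM15, with 5 lower, among them Mki67 and Top2a, and 1 higher, Myf5. Of 7 markers of other lineages, 3 were in the table and summed to 12.69 to 16.25 CPM in vehicle and 18.95 to 31.49 in BAM15. Nearly all of this sum was Runx2, with means of 14.2 CPM in vehicle and 24.05 in BAM15, which alone was tested and was higher. Fabp4 had means of 0.03 and 0.06 CPM and Bglap 0.09 and 0.53, in the same order. Adipoq, Plin1, Pecam1 and Ptprc were not analysed here. In bulk RNA, a change in the share of cells that make a transcript and a change in its amount per cell cannot be told apart, and the part of these marker levels in the results was not tested.

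The 250 bases before the RefSeq transcription start (GRCm38.p6) are shown for the catalytic subunit genes, since Prkaa1 led Prkaa2 on both scales used below. All 9 genes matched an entry, 11 entries in all. Capitals mark the GC box GGGCGG on either strand.
Prkaa1, chr15:5143611-5143860, plus strand: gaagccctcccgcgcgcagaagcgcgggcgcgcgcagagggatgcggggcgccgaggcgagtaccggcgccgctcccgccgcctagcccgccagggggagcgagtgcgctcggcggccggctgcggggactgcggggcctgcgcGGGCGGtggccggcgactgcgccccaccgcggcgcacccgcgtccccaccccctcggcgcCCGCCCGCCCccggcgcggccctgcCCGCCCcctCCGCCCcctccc
Prkaa2, chr4:105109899-105110148, minus strand: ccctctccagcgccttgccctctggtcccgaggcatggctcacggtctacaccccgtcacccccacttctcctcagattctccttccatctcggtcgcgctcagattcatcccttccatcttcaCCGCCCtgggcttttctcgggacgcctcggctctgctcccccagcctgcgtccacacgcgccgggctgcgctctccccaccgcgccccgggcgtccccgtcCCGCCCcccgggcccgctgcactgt
The Prkaa1 window held 45 CpG dinucleotides and 85.2% G or C, and 99.6% of the 32851 promoter entries of the same length held fewer CpG. The Prkaa2 window held 24 CpG and 70.0% G or C, and 88.0% of entries held fewer. The median entry held 6 CpG. There were 5 matches to the GC box before Prkaa1, of which an adjacent pair overlapped by 2 bases, and 2 before Prkaa2, while 32.7% of all entries held at least 1. Among the other genes, CpG and GC box matches were 18 and 5 for Prkab2 and 24 and 0 for Prkab1. They were 12 and 1 for Prkag1, 9 and 0 for Prkag3, 24 and 0 for Stk11 and 32 and 1 for Camkk2. The entries of Prkag2 held 34, 4 and 23 CpG with 1, 0 and 2 matches. These matches describe the letters of the windows and were not tested for binding or for a relation to transcript level.

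In vehicle myotubes, the mean normalized count (reads per library after TMM scaling to a common size of 16907110 reads) ran from 2590 for Stk11 to 174.8 for Prkaa2. The order was Stk11, Prkag3, Prkag1, Prkab2, Prkaa1, Camkk2, Prkab1, Prkag2 and Prkaa2. The neighbours Stk11 and Prkag3, Prkag3 and Prkag1, and Prkag2 and Prkaa2 overlapped in range, and the other neighbours did not. Divided by the length of the longest annotated transcript, normalized counts per kilobase ran in the order Prkag1, Stk11, Prkag3, Prkab2, Prkaa1, Camkk2, Prkab1, Prkag2 and Prkaa2, from 1246 ± 83.0 for Prkag1 to 21.9 ± 2.23 for Prkaa2 (SD, n = 6). No neighbours in this second order overlapped. QuantSeq counts transcript ends, for which the count is not divided by length. The count was therefore the main scale, and the count per kilobase is given as an alternative. Only the places of Stk11, Prkag1 and Prkag3 changed between these scales.

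**Figure D1:**
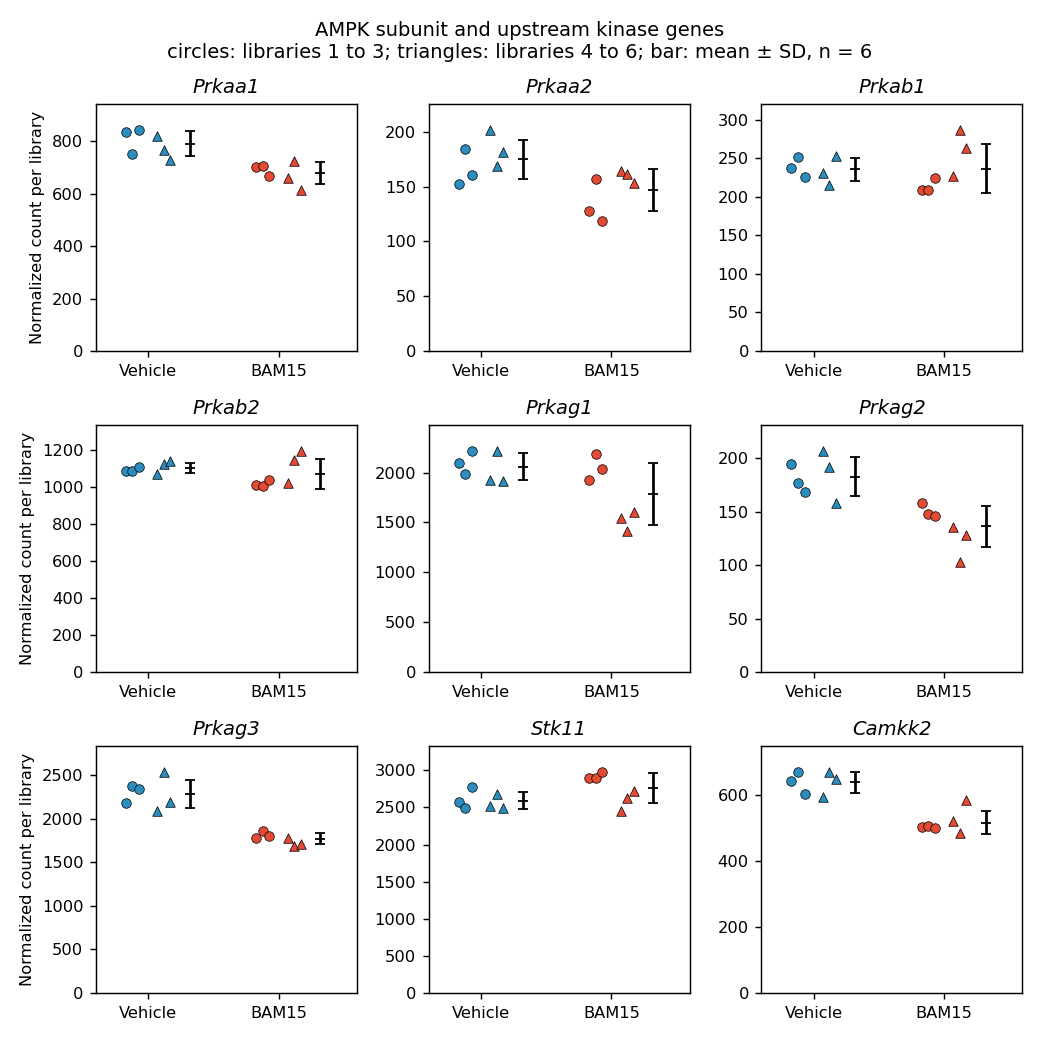
Normalized count (y axis, from 0) of each of the 9 genes in every vehicle and BAM15 library, with circles for libraries 1 to 3, triangles for libraries 4 to 6 and a bar for the mean ± SD of 6 libraries. For Prkaa1, Prkag3 and Camkk2 all BAM15 libraries lay below all vehicle libraries, and for Prkag1 only BAM15 libraries 4 to 6, at 1413 to 1603, lay below the vehicle range of 1912 to 2215.

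To determine whether BAM15 altered the supply of these transcripts, normalized counts were compared between the conditions. In all, 4 of the 9 genes were lower after BAM15 at an adjusted p below 0.01 (Prkaa1, Prkag2, Prkag3 and Camkk2), and none was higher. An unadjusted p below 0.05 was found for 5, these and Prkaa2, again all lower. Prkaa2 ranked 6958 by p among the 12730 tested genes, so most of the tested genes also lay below 0.05 unadjusted. DESeq2 and limma-voom also called 4 lower and 0 higher. Over all 12730 tested genes, 20.3% were lower and 22.0% higher at an adjusted p below 0.01, 42.3% in all. None of the 9 reached the study's further thresholds of a base mean above 50 and a change of more than 2-fold, which 7.28% of genes did. The groups did not overlap for 3 of the 9 (Prkaa1, Prkag3 and Camkk2), all lower after BAM15, against 17.0% of all genes not overlapping in that direction. The median log2 fold change of the 9 genes was -0.22, beside 0.02 over all tested genes. Of the 9, 7 had a negative value, where 47.8% of all tested genes did.

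Prkaa1 (ENSMUSG00000050697, chromosome 15, 5143861 to 5181899) encodes the α1 catalytic subunit. Its normalized count was 729.4 at the lowest, 792.2 at the median and 841.9 at the highest of the vehicle libraries, and 612.8, 683.8 and 724.8 in the BAM15 libraries. Every BAM15 library lay below every vehicle library, though the closest differed by little. The mean fell from 789.9 ± 47.5 to 678.8 ± 40.6 (SD, n = 6), a log2 fold change of -0.22 ± 0.06 (SE, adjusted p = 0.00649). All adjusted p-values for fold changes come from the quasi-likelihood fit of edgeR, adjusted by Benjamini-Hochberg over every tested gene. The log2 fold change was -0.23 within libraries 1 to 3 and -0.22 within libraries 4 to 6, with adjusted p of 0.0136 and 0.0814, and the call was lost in 6 of the 12 fits that left out a library (BAM15 libraries 3, 4 and 6 and vehicle libraries 1, 3 and 4), where the adjusted p rose to at most 0.0173.

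Prkaa2 (ENSMUSG00000028518, chromosome 4, 105029874 to 105109890) encodes the α2 catalytic subunit. Its normalized count was 152.3 at the lowest, 175.4 at the median and 201.4 at the highest in vehicle, and 118.5, 154.8 and 164.5 after BAM15. The ranges overlapped, although each of the 6 BAM15 libraries was under the mean of vehicle. Group means were 174.8 ± 17.8 and 147 ± 19.0 (SD, n = 6), and the log2 fold change of -0.25 ± 0.10 (SE) did not pass the threshold (adjusted p = 0.0529). Its 95% interval was -0.47 to -0.03, so the point estimate was as large as that of Prkaa1 with a wider error.

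Of the counts on the α subunit genes, Prkaa1 took 81.8% ± 2.00 in vehicle and 82.2% ± 2.11 after BAM15 (SD, n = 6). The share of Prkaa2 was 18.2% in vehicle and 17.8% after BAM15, a difference smaller than the spread between libraries (p = 0.753, two-sided exact permutation test). α1 therefore dominated the counts in all 12 libraries, with Prkaa1 between 80.0% and 84.9%. Per kilobase of transcript, its share was 88.5% in vehicle and 88.8% after BAM15. The counts of the α genes summed to 964.7 ± 43.9 in vehicle and 825.8 ± 45.7 after BAM15 on the normalized scale.

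Among all tested genes with a base mean above 50, the profiles most like that of Prkaa1 over the 12 libraries were those of Fech (ferrochelatase), Copz2 (a coatomer subunit) and Ambra1 (a regulator of autophagy), with a root mean square difference of 0.06, 0.06 and 0.07 in log2 normalized count centred on vehicle, where the median gene differed by 0.33. Those most like Prkaa2 were Poc1b (a centriolar protein), Zdhhc20 (a palmitoyltransferase) and Synj1 (a phosphoinositide phosphatase), with 0.11, 0.11 and 0.11 against a median of 0.36. These are descriptions of likeness over 12 libraries that share a treatment.

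The β subunits hold the complex together and carry its glycogen-binding module. Prkab2 (ENSMUSG00000038205, chromosome 3, 97658193 to 97673812), the gene of β2, had 1070, 1095 and 1137 normalized counts at the lowest, median and highest in vehicle and 1007, 1027 and 1193 after BAM15. Prkab1 (ENSMUSG00000029513, chromosome 5, 116013586 to 116024508), the gene of β1, had 215.5, 233.7 and 252.2 in vehicle and 208.5, 225.6 and 286.3 after BAM15. For both genes the BAM15 range enclosed or crossed the vehicle range, with 2 BAM15 libraries above the vehicle mean. The log2 fold change of Prkab2 was -0.04 ± 0.06 (SE, 95% interval -0.16 to 0.07, adjusted p = 0.526). That of Prkab1 was 0.01 ± 0.09 (95% interval -0.19 to 0.20, adjusted p = 0.965), and its sign turned under other scalings. The log2 fold change of Prkab1 was -0.16 in libraries 1 to 3 (adjusted p = 0.219) and 0.14 in libraries 4 to 6 (adjusted p = 0.376), and that of Prkab2 was -0.10 and 0.00 (adjusted p = 0.169 and 0.993).

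β2 was the main β transcript. Prkab2 took 82.4% ± 0.988 of the β counts in vehicle and 81.9% ± 1.06 after BAM15 (SD, n = 6; p = 0.450, two-sided exact permutation test). Its share lay between 79.96% and 83.9% in all 12 libraries. Per kilobase it was 66.1% in vehicle and 65.4% after BAM15, still the larger share. The β counts summed to 1336 ± 29.6 in vehicle and 1304 ± 109 after BAM15 on the normalized scale.

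**Figure D2:**
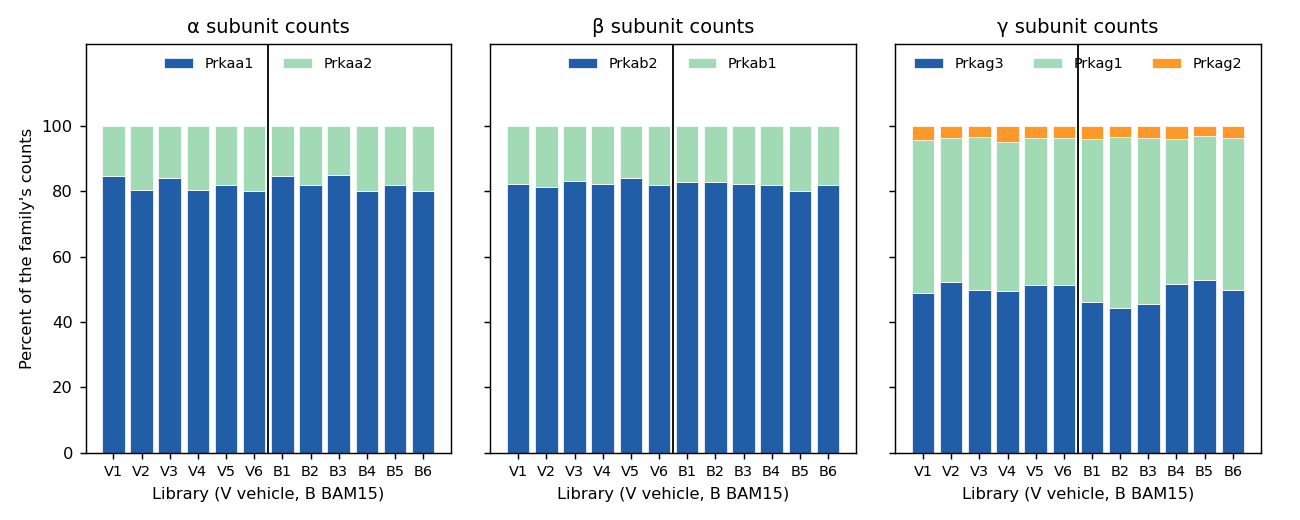
Share of each isoform in the counts of its subunit family (y axis, percent) in each library, vehicle libraries V1 to V6 left of the line and BAM15 libraries B1 to B6 right of it. Prkaa1 and Prkab2 kept about the same large share in every library, while Prkag1 exceeded Prkag3 only in B1, B2 and B3.

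The γ subunits bind AMP, ADP and ATP. Prkag3 (ENSMUSG00000006542, chromosome 1, 74738922 to 74749221), the muscle isoform γ3, had 2086, 2268 and 2536 normalized counts at the lowest, median and highest in vehicle and 1691, 1783 and 1854 after BAM15. The groups were clearly separate. The mean fell from 2286 ± 164 to 1771 ± 60.9 (SD, n = 6), a log2 fold change of -0.37 ± 0.05 (SE, adjusted p = 4.355e-05). This was the smallest adjusted p of the 9 genes, and the decrease was found in both number groups, at -0.35 in libraries 1 to 3 and -0.41 in libraries 4 to 6 (adjusted p = 5.28e-05 and 0.00216).

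Prkag2 (ENSMUSG00000028944, chromosome 5, 24862744 to 25100642), the gene of γ2, had 158.2, 184.2 and 206.8 normalized counts in vehicle and 103.3, 140.7 and 158.2 after BAM15, in the same order. The highest BAM15 library and the lowest vehicle library met at the same value. The mean fell from 182.7 ± 18.2 to 136.5 ± 19.3 (SD, n = 6), a log2 fold change of -0.42 ± 0.11 (SE, adjusted p = 0.00397). Within libraries 1 to 3 the log2 fold change was -0.26 (adjusted p = 0.0763) and within libraries 4 to 6 it was -0.61 (adjusted p = 0.00642). Without vehicle library 1 or vehicle library 4, the adjusted p was 0.0104 and 0.0108.

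Prkag1 (ENSMUSG00000067713, chromosome 15, 98812797 to 98831521) encodes γ1, the isoform found in most tissues. Its normalized count was 1912 at the lowest, 2044 at the median and 2215 at the highest in vehicle, and 1413, 1766 and 2187 after BAM15. BAM15 libraries 1 to 3, at 1930 to 2187, lay within the vehicle range, and BAM15 libraries 4 to 6, at 1413 to 1603, lay below it. Over all libraries the log2 fold change was -0.21 ± 0.10 (SE, 95% interval -0.42 to 0.00, adjusted p = 0.0898), which did not pass. Within libraries 1 to 3 it was -0.04 ± 0.06 (adjusted p = 0.613) and within libraries 4 to 6 it was -0.42 ± 0.09 (adjusted p = 0.00174). The difference between these effects, by the interaction term, was -0.37 ± 0.11 on the log2 scale and did not pass after adjustment (adjusted p = 0.0640). The BAM15 libraries themselves differed, with means of 2049 ± 129 for libraries 1 to 3 and 1521 ± 97.5 for libraries 4 to 6 (SD, n = 3; adjusted p = 4.96e-04, edgeR).

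Across the 9 genes, the interaction passed an adjusted p of 0.05 for 0 genes by edgeR, with 1 (Prkag1) below 0.05 unadjusted, and for 0 by limma-voom. Between BAM15 libraries 4 to 6 and 1 to 3, 2 of the 9 differed at an adjusted p below 0.05, Prkag1 and Stk11, beside the 37.0% of all genes given above.

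By count, Prkag3 was above Prkag1 in each of the 6 vehicle libraries, while after BAM15 the order depended on the libraries. Of the γ counts in vehicle, Prkag3 took 50.5% ± 1.40, Prkag1 45.5% ± 1.23 and Prkag2 4.05% ± 0.494 (SD, n = 6). After BAM15 the shares were 48.2% ± 3.51, 48.1% ± 3.43 and 3.69% ± 0.302. The differences in share did not pass a two-sided exact permutation test (p = 0.182 for Prkag3, 0.130 for Prkag1 and 0.171 for Prkag2). Each p was 0.303 after Benjamini-Hochberg adjustment over 5 shares. Within BAM15 the shares split by library number. Prkag1 took 49.8% to 52.2% in BAM15 libraries 1 to 3 and 44.1% to 46.6% in BAM15 libraries 4 to 6, while it took 43.8% to 46.9% in the vehicle libraries. With 3 libraries against 3, an exact test cannot give a p below 0.1, so the share was not tested within number groups. Per kilobase, Prkag1 took 59.1% and Prkag3 38.3% of the γ counts in vehicle, the reverse of their order by count. Prkag2 was the least abundant γ transcript on both scales. The γ counts summed to 4528 ± 276 in vehicle and 3693 ± 377 after BAM15 on the normalized scale, 4.70 and 4.48 times the summed α counts. These ratios are of counts not divided by transcript length, and they depend on that scale.

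**Figure D3:**
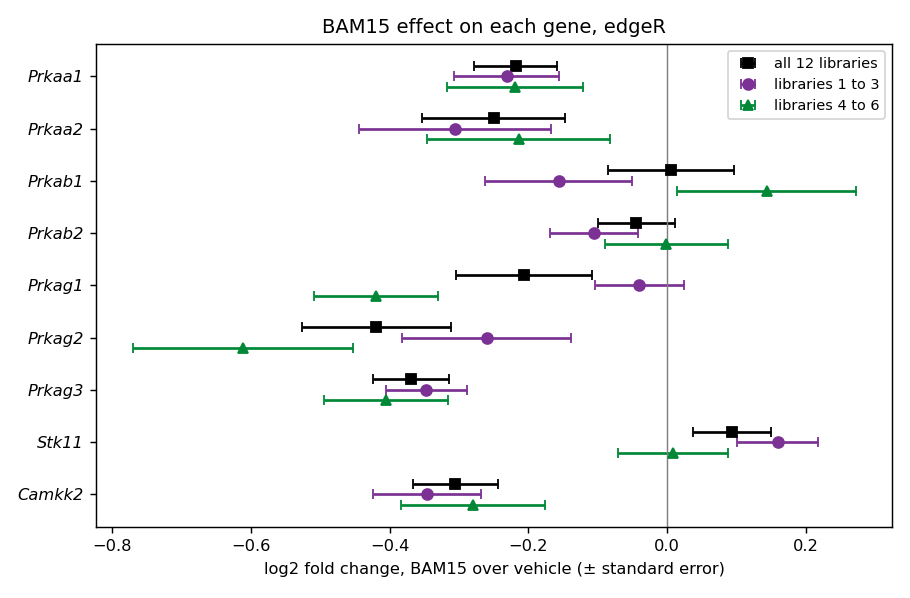
Log2 fold change of BAM15 over vehicle (x axis) with its standard error for each of the 9 genes, from all 12 libraries (squares), libraries 1 to 3 (circles) and libraries 4 to 6 (triangles). The values for Prkag3, Camkk2 and Prkaa1 lie together on the left of 0, whereas those for Prkag1 lie at -0.04 and -0.42 in the number groups.

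Stk11 (ENSMUSG00000003068, chromosome 10, 80115803 to 80130682) encodes LKB1, the main kinase upstream of AMPK. Its normalized count was 2491 at the lowest, 2544 at the median and 2777 at the highest in vehicle, and 2451, 2809 and 2977 after BAM15. The 3 BAM15 libraries numbered 1 to 3 lay above the vehicle range and those numbered 4 to 6 lay largely within it. The means were 2590 ± 117 and 2763 ± 200 (SD, n = 6), and the log2 fold change of 0.09 ± 0.06 (SE, 95% interval -0.03 to 0.21) did not pass (adjusted p = 0.182). It was 0.16 ± 0.06 within libraries 1 to 3 (adjusted p = 0.0269) and 0.01 ± 0.08 within libraries 4 to 6 (adjusted p = 0.941), and the interaction did not pass (adjusted p = 0.338). Within the BAM15 libraries, numbers 4 to 6 were lower than 1 to 3 by a log2 difference of -0.17 (adjusted p = 0.0461). Over 232 of the final 400 bases of the Stk11 transcript, exons of Cbarp lie on the other strand, and the strand used in counting is not given in the sources used here, so reads of these genes may have been shared. None of the other 8 genes had such an overlap, and none of the 9 shared a run of 50 bases in this region with another gene.

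Camkk2 (ENSMUSG00000029471, chromosome 5, 122731170 to 122779409) encodes the calcium-dependent AMPK kinase. Its normalized count was 594.3 at the lowest, 645.9 at the median and 670.1 at the highest in vehicle, and 485.4, 505.3 and 584.8 after BAM15. The groups did not overlap, and BAM15 library 6 was the closest to vehicle. The mean fell from 638.5 ± 32.3 to 516.8 ± 35.1 (SD, n = 6), a log2 fold change of -0.31 ± 0.06 (SE, adjusted p = 6.275e-04). The log2 fold change was -0.35 within libraries 1 to 3 (adjusted p = 8.83e-04) and -0.28 within libraries 4 to 6 (adjusted p = 0.0407), and each of the 12 fits that left out a library kept the call.

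To place these genes among the rest of the pathway, 72 further genes were listed by their textbook place in AMPK signaling, of which 67 were tested. Of these, 14 were lower and 15 higher after BAM15 at an adjusted p below 0.01, a share of 43.3% that lies near the 42.3% of all tested genes. Their median log2 fold change was 7e-04. In the whole set, 3 genes were higher (Sesn2, Fnip2 and Hdac4) past the base mean and 2-fold thresholds as well, and Nuak1 was lower past them. The list counts below stand beside 20.3% lower and 22.0% higher of all 12730 tested genes. By number group, they stand beside 5730 of 12898 tested genes called in either direction within libraries 1 to 3. Within libraries 4 to 6, 4265 of 12849 were called.

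Among 7 partners of LKB1 and other kinases upstream of AMPK, 2 were lower and none higher, with a median log2 fold change of -0.06. Camkk1, the paralog of Camkk2, fell from 65.1 ± 10.8 to 23.8 ± 6.28 normalized counts (SD, n = 6), a log2 fold change of -1.44 ± 0.18 (SE, adjusted p = 7.90e-06) at a base mean of 44.5. Map3k7, which encodes TAK1, fell from 1348 ± 73.6 to 1097 ± 111, a log2 fold change of -0.30 (adjusted p = 0.00206). The genes of the LKB1 complex did not pass: Strada and Stradb, its pseudokinases, had fold values of 1.05 and 0.96, and Cab39, its scaffold MO25, had 0.96. Cab39l, the paralog of Cab39, had the largest change of these, with a fold value of 0.88 (adjusted p = 0.0245, edgeR). Within libraries 4 to 6, 1 gene of this list passed.

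Of 12 AMPK-related kinases, which LKB1 also activates, 10 were tested, 2 were lower and 1 was higher, with a median log2 fold change of 0.00. Nuak1 fell from 2599 ± 108 to 1011 ± 34.8 normalized counts (SD, n = 6), a log2 fold change of -1.36 ± 0.05 (SE, adjusted p = 5.97e-12), which passed every threshold. Mark2, a microtubule affinity regulating kinase, fell from 547.1 ± 10.9 to 429.7 ± 45.7, a log2 fold change of -0.35 (adjusted p = 7.02e-04). The gene that rose was Mark4, a kinase of the same family. Within libraries 1 to 3 the number lower was 1, and within libraries 4 to 6 the number higher was 0.

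Of 12 regulators and partners of AMPK, 5 were higher, 1 lower and 6 not called, with a median log2 fold change of 0.06. Sesn2, which encodes the stress-induced sestrin 2, lay between 74.69 and 104.2 normalized counts in the vehicle libraries and between 535.8 and 891.3 in the BAM15 libraries. Its mean rose from 89.2 ± 13.0 to 745.7 ± 160 (SD, n = 6), a log2 fold change of 3.06 ± 0.15 (SE, adjusted p = 2.67e-10), while Sesn1 and Sesn3 had fold values of 1.05 and 0.91 and did not pass. Fnip2, a folliculin-interacting protein that binds AMPK, rose from 135.4 ± 7.32 to 298.3 ± 19.8, a log2 fold change of 1.14 ± 0.07 (adjusted p = 4.60e-09). Its paralog Fnip1 also rose, as did Axin1 and the phosphatase Ppm1a, while the gene of their partner folliculin, Flcn, varied between 251.4 and 720.2 across the BAM15 libraries. The lysosomal anchor Lamtor1 was the gene that fell, and this call depended on the libraries, since 0 to 2 genes were lower when a library was left out, 3 within libraries 1 to 3 and 0 within libraries 4 to 6. The count was 0 without BAM15 library 1, 3 or 4 or vehicle library 4, and 2 without BAM15 library 5 or 6.

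Substrates and effectors of AMPK in lipid metabolism numbered 11, of which 9 were tested, 2 were lower and 2 higher, with a median log2 fold change of -0.05. Srebf2, the transcription factor of the sterol pathway, fell from 1806 ± 115 to 1211 ± 128, a log2 fold change of -0.58 (adjusted p = 8.07e-06). The triglyceride lipase gene Pnpla2 and Cpt1a, which admits fatty acids to mitochondria, were the genes that rose. Acaca, the cytosolic acetyl-CoA carboxylase, had a mean of 591.2 in vehicle and 702.1 after BAM15 and did not pass (adjusted p = 0.0532).

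Of 10 substrates and effectors in glucose metabolism, all tested, 2 were lower and 3 higher, with a median log2 fold change of 0.18. Tbc1d1, a Rab GTPase-activating protein that holds GLUT4 inside the cell until it is phosphorylated, fell from 2437 to 1508 normalized counts on average, a log2 fold change of -0.69 ± 0.08 (SE, adjusted p = 2.07e-06). Irs1, the adaptor of the insulin receptor, fell from 877.9 ± 127 to 528.6 ± 87.8, a log2 fold change of -0.73 (adjusted p = 6.15e-05). The 3 genes that rose were Slc2a4 (GLUT4), Gfpt1 and Mlxip, of which Slc2a4 rose by 1.06 on the log2 scale at a base mean below 50.

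The list of growth control, autophagy, mitochondrial dynamics and transcription held 20 genes, of which 19 were tested, 5 were lower and 4 higher, with a median log2 fold change of 0.05. The class IIa histone deacetylases, which AMPK phosphorylates, moved in opposite directions. Hdac4 rose from 568.4 ± 59.8 to 1324 ± 161 normalized counts (SD, n = 6), a log2 fold change of 1.22 ± 0.09 (SE, adjusted p = 2.68e-08). Hdac7 fell from 1174 ± 52.0 to 693.5 ± 106, a log2 fold change of -0.76 (adjusted p = 2.55e-06), and Hdac5 fell by 0.46 on the log2 scale. The others that fell were Rptor, Ulk2 and Acss2, of which Rptor encodes the raptor subunit of mTORC1, and the others that rose were Foxo3, Crtc3 and Atg9a, the last at a base mean below 50. The coactivator gene Ppargc1a did not pass, with means of 102.8 and 108.1. Within libraries 4 to 6, 3 genes of this list were lower and 2 higher, and 3 were lower when BAM15 library 1, 2 or 3 or vehicle library 1, 3 or 5 was left out.

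**Figure D4:**
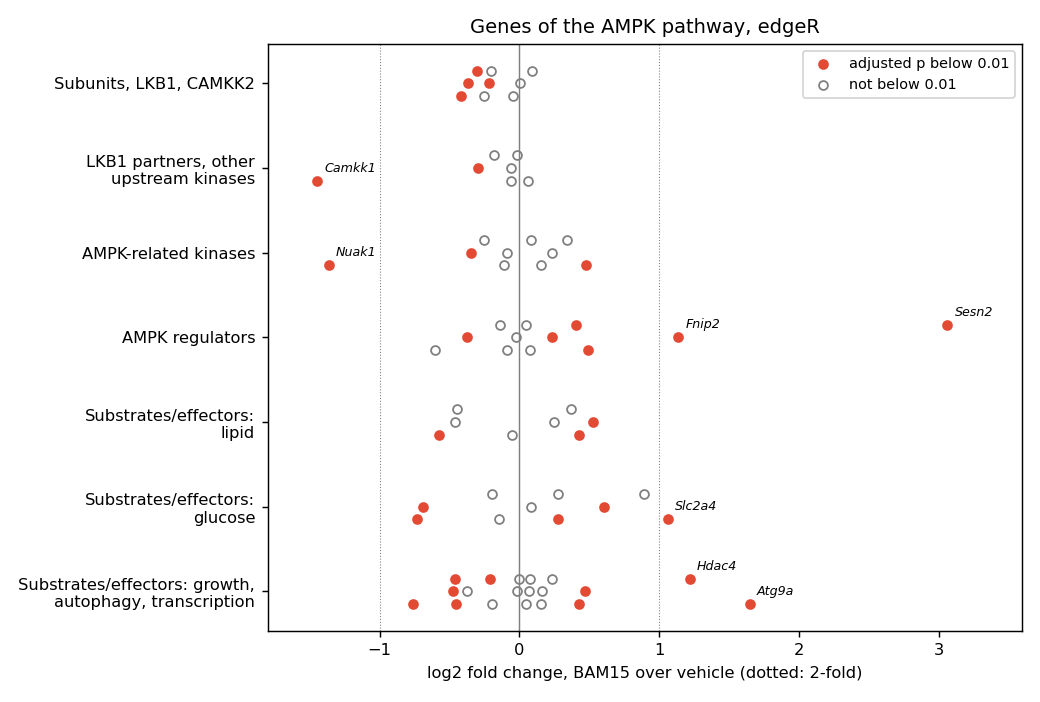
Log2 fold change of BAM15 over vehicle (x axis) for the 9 genes (top line) and 66 of the 67 tested genes of the 6 lists, with filled points for an adjusted p below 0.01 and dotted lines at a 2-fold change; the vertical position within a line has no meaning. The 9 genes all lie within 2-fold, while Sesn2 lies farthest right at 3.06 and Camkk1 farthest left at -1.44.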

How the data were processed

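Libraries of C2C12 myotubes (6 per condition) were prepared by the authors with QuantSeq, aligned in BlueBee software and deposited as raw counts, whole numbers of reads per Ensembl gene, and as a normalized signal, which per the labels comes from DESeq2 1.22.2 and equals the counts divided by 1 factor per library. The labels name the build GRCm38, while the aligner, annotation and strand of counting are not given in the sources used here. Reads are 50 bp in the labels and longer in the paper's methods. Another 11 columns, of other samples, were not used. Symbols missing for 2293 identifiers were taken from GENCODE M21 for 2260.

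Low counts were removed with filterByExpr (2383 genes), and 12730 genes were fitted in R 4.3.3 with edgeR 4.0.16 (TMM factors 0.932 to 1.04, robust quasi-likelihood test, condition as the only term), with Benjamini-Hochberg adjustment over all tested genes and a call at an adjusted p below 0.01. The SE is the log2 fold change divided by the square root of F. The base mean is the mean normalized count of 12 libraries. Isoform shares rest on raw counts and exact permutation tests over libraries. Transcript lengths and neighbours are from GENCODE M21, and 3′ overlaps were searched in the last 400 bases. Totals of 13983725 to 18866728 reads set the counting error, and no pair of libraries agreed within sampling noise (chi-square per gene at least 4.98). The members and lists were chosen with earlier results of these data known. All 9 members, list genes past all thresholds and the 2 lowest adjusted p of each list were to be named, with the 3 genes most like Prkaa1 and Prkaa2, and other list genes were named after their values were seen. Alternatives were DESeq2 1.42.0, limma-voom (limma 3.58.1), other scalings, filters and thresholds, blocks for library number, number groups alone and leaving out each library. A listed gene that was tested and counted is not reported here by name or in the figure. The fits were checked on simulated data.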

Additional observations from a re-analysis of the deposited data

Results flagged for a closer look

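Of 28 groups of 6 libraries checked for a library far from the rest, 2 held one, where chance gives about 1 in 20. BAM15 library 6 had 584.8 normalized counts for Camkk2, while the nearest BAM15 library had 520.1. BAM15 library 5 had a Prkab2 share of 79.96% of the β counts, while the nearest BAM15 library had 81.8%.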

How the results depend on the processing

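The number of the 9 genes lower after BAM15 was 4 in all alternatives on 12 libraries except the replicate block (3), 2 within libraries 1 to 3, 3 within libraries 4 to 6, and 2 to 4 when a library was left out (2 without vehicle library 1 or 4). Over all tested genes, in either direction, 5730 of 12898 were called within libraries 1 to 3 and 4265 of 12849 within libraries 4 to 6. Leaving out a library gave 4874 to 5509 called genes. The number higher, and the number past the 2-fold threshold, was 0 throughout. Prkag3 was called in every alternative, with an adjusted p of at most 0.00216. Prkag2 and Camkk2 lost their calls only in the fits given above. The log2 fold change of Prkab1 was negative with limma-voom (-0.0028), upper quartile factors (-0.0139), library size alone (-0.0489), no filter on low counts (-0.0007) and libraries 1 to 3 (-0.156), and lay between -0.0573 and 0.0398 when a library was left out.

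The labels do not pair library numbers. Correlations of same-numbered deviations were -0.0947 to 0.520, and a BAM15 library matched its own vehicle number best for 2 of 6 numbers, 3 and 6. BAM15 libraries 1, 2 and 3 all matched vehicle library 3 best, and BAM15 libraries 4, 5 and 6 all matched vehicle library 6 best. With number group as a block, 6066 genes were called, beside 5379 without a block. With library number as a replicate block, all genes called went from 5379 to 5292, the adjusted p of Prkaa1 to 0.0123 and the log2 fold change of Prkab1 to -0.0007.

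The share difference, BAM15 minus vehicle in percentage points, within libraries 1 to 3 was 0.541 for Prkab2, 5.19 for Prkag1 and -5.02 for Prkag3. Within libraries 4 to 6 it was 0.115 for Prkaa2, -1.46 for Prkab2, -0.0210 for Prkag1 and 0.563 for Prkag3. For Prkaa2 it was -0.896 to 0.184 when a library was left out.

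In the lists, related kinases had 2 higher at an adjusted p below 0.05. Regulators had 2 lower with limma-voom, with number groups as a block and at an adjusted p below 0.05, 3 within libraries 1 to 3 and 0 within libraries 4 to 6, and 3 higher with library size alone. Leaving out a library gave 0 to 2 lower regulators and 3 to 5 lower genes of growth and autophagy. Within libraries 4 to 6, the counts were 1 lower kinase upstream of AMPK, 0 higher related kinases, and 3 lower and 2 higher genes of growth and autophagy; within libraries 1 to 3, 1 lower related kinase. The causes were not tested. The SE was largest for Prkag2 and Prkaa2, at base means near 160, and nearly as large for Prkag1 at 1922, so the limit set by depth was not separated from the spread between libraries.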
